A study of Homo sapiens with 9 samples.

Results

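The genes described here encode the proteins of the mitochondrial ribosome, named MRPL for the large and MRPS for the small subunit. Members were the single-symbol probe sets of the array whose gene symbol starts with MRPL or MRPS and a number, with pseudogene names left out. This gave 76 of the 19775 gene symbols on the array. Of these, 48 are proteins named for the large subunit and 27 are proteins named for the small subunit. The remaining member, MRPL20-AS1, is an antisense noncoding RNA caught by the letters of its symbol and is described apart. Of several probe sets for a gene, the brightest over the 9 arrays was used.

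The mitochondrial ribosome translates the few proteins encoded by mitochondrial DNA, all of them core parts of the respiratory chain and ATP synthase. Its own proteins are encoded in the nucleus, made in the cytosol and imported. They work with mitochondrial ribosomal RNA, assembly factors, tRNA synthetases and translation factors.

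U87, a human glioma cell line, was the model in all 9 samples, with 3 biological replicates in each of 3 groups. One group received miR-376a*A, another miR-376a*G and the third a control miRNA, each as a duplex at 50 nM delivered with Lipofectamine RNAiMAX. RNA was taken after 24 h, so every group, the controls included, had been transfected. The question stated for the series is which genes each form changes relative to the control miRNA. As background, adenosine in this miRNA can be edited to inosine, which is read as guanosine, and A and G name the unedited and edited forms.

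The mature miRNA of the unedited sequence is shown because it is the transfected agent and its seed, bases 2 to 8 in capitals, is the part that pairs with targets. It is listed by RefSeq (GRCh38.p14) at chr14:101040788-101040809 on the plus strand. The sequences of the edited form and of the control duplex are not used here.
hsa-miR-376a-5p: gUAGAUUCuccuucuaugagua

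Values are probe-set signals on a linear scale, and differences are log2 differences between group means of log2(signal + 16), which understate changes of dim genes. A gene passed when its adjusted p from limma was under 0.05, with adjustment over all 20068 features tested. All 76 members passed the filter on dim probe sets. Their mean signals ran from 51.1 to 1676, with a median of 574 against 77.8 over all tested features. The arrays are bulk RNA, so fewer cells and less RNA per cell cannot be told apart.

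On the arrays the glial and mesenchymal markers VIM and CD44 were bright, with mean signals of 2201 and 1953, while the astrocyte markers GFAP (1.59) and S100B (1.14) were below the filter. NES (74.9) and SOX2 (21.2) of the same list were above the filter. Of the other fixed marker lists, 1 of 3 leukocyte, 1 of 3 epithelial and 1 of 2 endothelial genes were above it, with mean signals of at most 56.9. All 3 neuronal markers were above it, from RBFOX3 at 12.6, near the filter signal of 11.3, to SNAP25 at 479. The median signal of the arrays ran from 17.9 to 20.3.

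The control array of replicate 1 stood apart for these genes, and this bears on every comparison with the control. It was the lowest of the 9 arrays for 66 of the 75 protein genes, against 21.6% of all features tested. Its median deviation from the gene mean was -0.40 for the large and -0.39 for the small subunit, against -0.01 over all features. The cytosolic ribosomal proteins (-0.18) and the oxidative phosphorylation subunits (-0.31) were also low on it. The other 2 control arrays had medians between -0.06 and 0.03 for both subunits. The median SD of log2 values over the members was 0.24 among controls, 0.047 with miR-376a*A and 0.048 with miR-376a*G. Counts of called genes by subunit, family and related list are therefore given also without this array where they change. So are the medians of the subunits and compared families. Values of named members against the control are given without it where they lose the call or move by over 1.5 times. Values by promoter letters and for partner genes use all 9 arrays only.

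**Figure D1:**
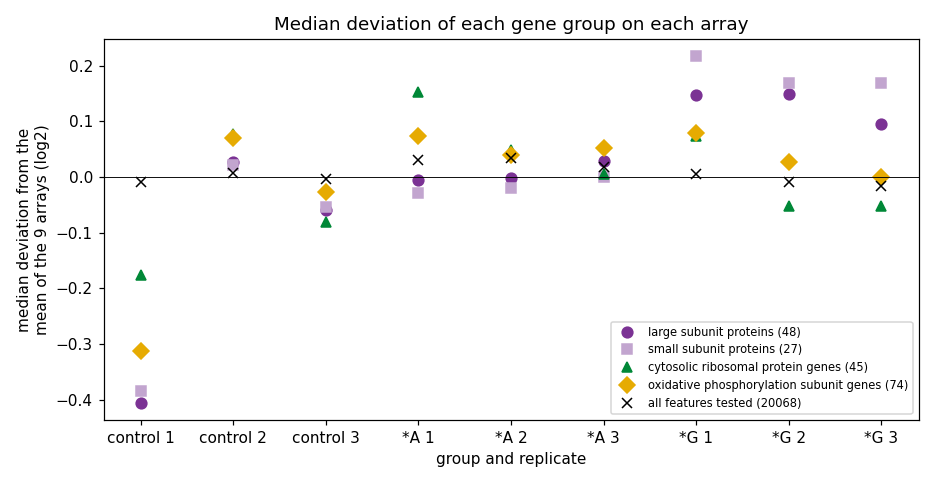
Median deviation (log2) of each family from the gene means, for each of the 9 arrays. The control array of replicate 1 lies at -0.40 for the large and -0.39 for the small subunit, and the miR-376a*G arrays lie at 0.10 to 0.22 for both subunits.

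With miR-376a*G, mitochondrial ribosomal protein genes were higher across both subunits. Of the 48 large subunit genes 21 rose and 1 fell, and of the 27 small subunit genes 18 rose and 0 fell, at an adjusted p under 0.05 from limma. Over all features 11.8% rose and 13.1% fell. The median log2 difference was 0.29 for the large and 0.33 for the small subunit, against -0.0038 over all features. Values were above 0 for 44 of the 48 and for 27 of the 27 genes, against 9897 of the 20068 features. The 2 groups did not overlap for 29 large and 21 small subunit genes that were higher, against 18.6% of all features. They did not overlap for 1 large and 0 small subunit genes that were lower, against 19.7% of all features.

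Leaving out control replicate 1 lowered the medians to 0.15 and 0.22 but left the calls much as they were. Values were above 0 for 40 of the 48 large and 24 of the 27 small subunit genes. Then 20 large subunit genes rose and 2 fell, and 19 small subunit genes rose and 0 fell, against 13.1% and 13.4% of all features. Of the 21 and 18 genes that rose with all arrays, 20 and 18 also rose without it. MRPL47 was the gene lost, and MRPS27 was the gene gained. Without miR-376a*G replicate 2 the count for the small subunit was 11, and without replicate 1 it was 12. The share over all features is not given for either of these fits. The 2-group fit on the miR-376a*G and control arrays alone called 18 large subunit genes as higher and 1 as lower, and 11 small subunit genes as higher, against 9.29% and 10.7% of all features.

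With miR-376a*A, 17.1% of the 76 members passed in either direction, against 20.8% of all features. With all arrays the medians of both subunits were above that of all features, by less than with miR-376a*G. Without control replicate 1 neither median was above that of all features. Of the large subunit genes 6 rose and 0 fell, and of the small subunit genes 5 rose and 1 fell, where 10.8% of all features rose and 10.0% fell. The median difference was 0.17 for the large and 0.13 for the small subunit, against 0.04 over all features. Without control replicate 1 these medians were 0.025 and 0.0052, against 0.028 over all features. The same 6 and 5 genes rose then, and 4 large and 4 small subunit genes fell, against 12% and 10.6% of all features. The 2-group fit on the miR-376a*A and control arrays called 3 large subunit genes as higher, and 4 small subunit genes as higher and 1 as lower, against 8.1% higher and 7.8% lower over all features. The count of large subunit genes also moved without control replicate 2, to 16, and without miR-376a*A replicate 2 or replicate 3, to 3 in each case. For these fits the share over all features is not given.

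**Figure D2:**
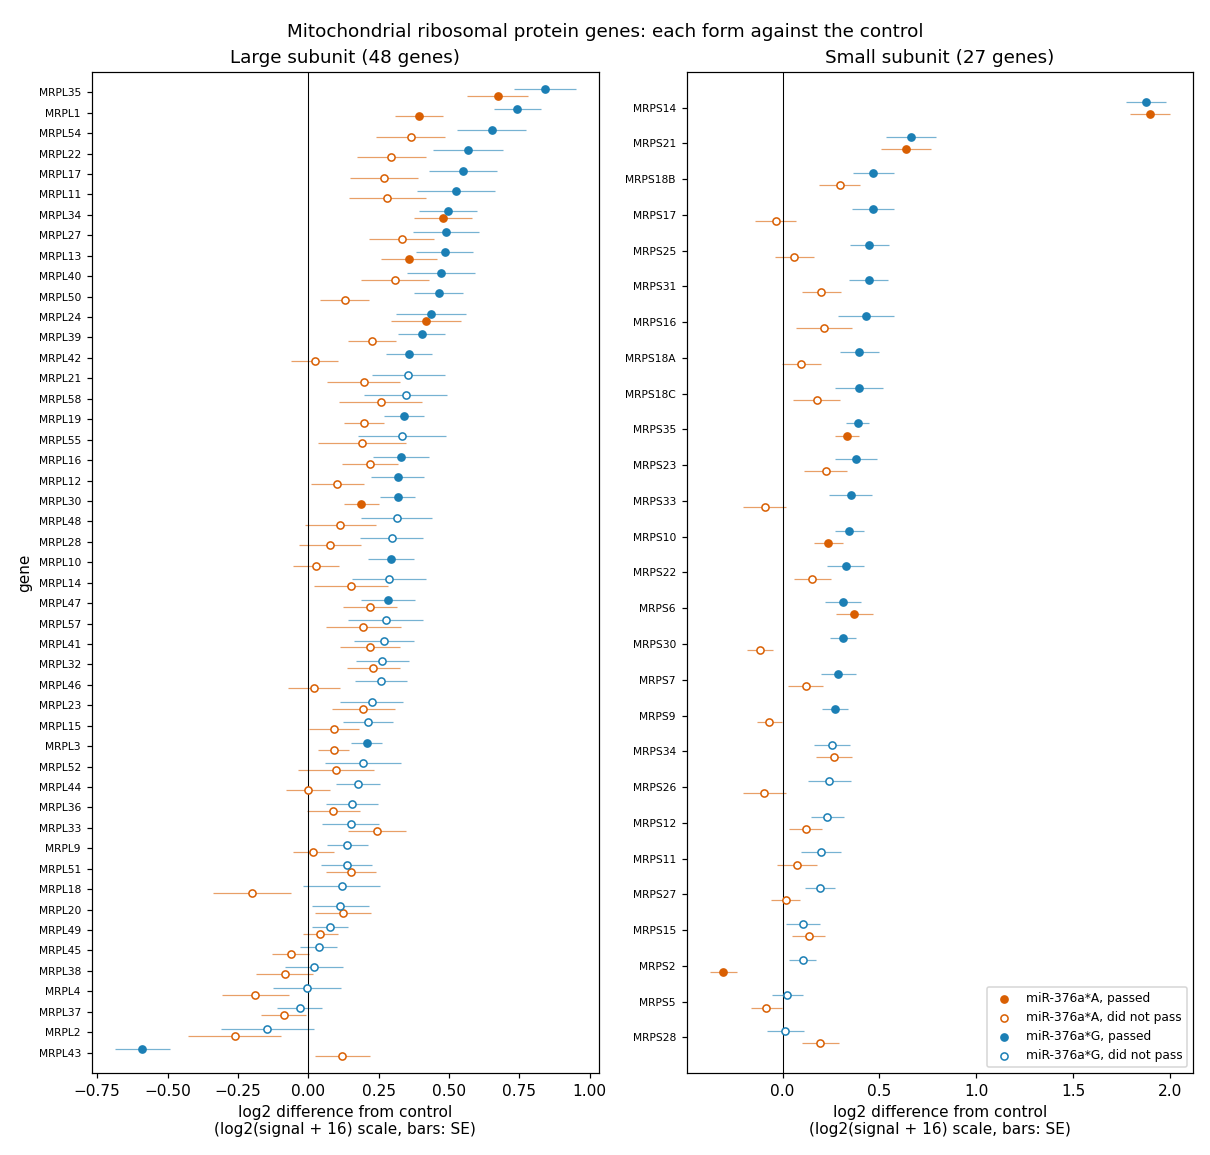
Log2 difference of each protein gene for each form against control, by subunit, with SE bars and filled marks for genes that passed. With miR-376a*G the medians were 0.29 and 0.33, with MRPL43 (-0.59) far below the others and MRPS14 (1.88) far above.

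A smaller share of genes rose with miR-376a*G in the gene families nearest in function, where over all features 11.8% rose and 13.1% fell. Of 45 cytosolic ribosomal protein genes 1 rose and 1 fell, with a median of 0.04. Of 74 tested subunits of oxidative phosphorylation 5 rose and 1 fell, with a median of 0.11. The counts for miR-376a*A were 1 and 1 for the cytosolic ribosome and 3 and 2 for oxidative phosphorylation, with medians of 0.13 and 0.14. Without control replicate 1 the medians with miR-376a*G were -0.01 for the cytosolic ribosome, with 1 gene higher and 1 lower, and 0.0047 for oxidative phosphorylation, with 4 higher and 3 lower. With miR-376a*A they were 0.074, with 1 and 1, and 0.039, with 2 and 2. Over all features and with all arrays, 10.8% rose and 10.0% fell with miR-376a*A. Without control replicate 1 the shares over all features were 13.1% higher and 13.4% lower with miR-376a*G, and 12% and 10.6% with miR-376a*A. The counts for these families are a description, and the difference between families was not tested.

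**Figure D3:**
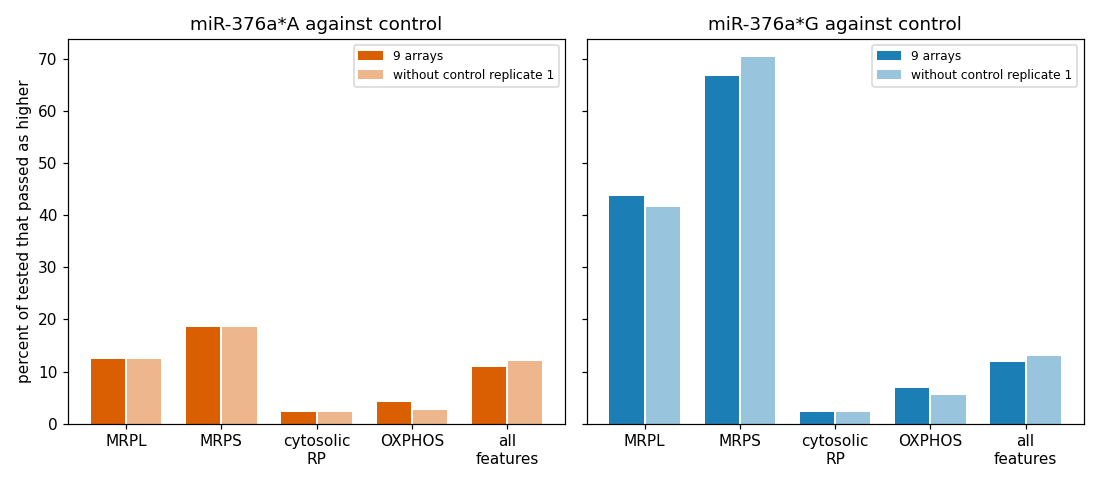
Percent of genes that rose with each form against control, for the members and the compared families, with all 9 arrays and without control replicate 1. With all arrays 43.8% of large and 66.7% of small subunit genes rose with miR-376a*G, against 11.8% of all features.

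MRPS14, a conserved protein of the small subunit head, gave the widest change of the family and was already known from earlier results of these data. Its signals were 101, 153 and 126 on the control arrays, 505, 508 and 513 with miR-376a*A, and 504, 498 and 503 with miR-376a*G. All 6 arrays of the forms lay far above all 3 controls and close to each other. The difference was 1.90 ± 0.10 (SE), or 3.72-fold, with miR-376a*A (adjusted p = 9.89e-08), and 1.88 or 3.67-fold with miR-376a*G (adjusted p = 1.05e-07). Between the forms it was 0.02 (adjusted p = 0.921). A second, dimmer probe set rose by 0.83 and 0.60 and passed in both comparisons.

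The bases before the start of MRPS14 are shown because no other member moved as far. The stretch lies at chr1:175023426-175023525 on the minus strand of GRCh38.p14 in RefSeq.
MRPS14: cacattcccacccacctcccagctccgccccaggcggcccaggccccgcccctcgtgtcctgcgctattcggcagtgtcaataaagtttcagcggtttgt

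In the large subunit, MRPL35 had signals of 301, 441 and 403 in the controls, 577, 633 and 624 with miR-376a*A, and 695, 700 and 669 with miR-376a*G. The 3 groups did not overlap and rose in that order. Between the forms the difference was -0.17 (miR-376a*A minus miR-376a*G), which passed without control replicate 1 but not with all arrays. MRPL35 rose by 0.67 ± 0.11 (SE) with miR-376a*A (adjusted p = 0.000863) and by 0.84 ± 0.11 with miR-376a*G (adjusted p = 0.000121). Without control replicate 1 the values were 0.52 and 0.69 and both passed. Its probe set is of a type that can match several transcripts, and the other 2 probe sets of the gene also rose in both comparisons.

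MRPL1 encodes the protein of the L1 stalk, which moves spent tRNA out of the ribosome. Its signals were 303, 385 and 373 in the controls, 461, 456 and 486 with miR-376a*A, and 601, 616 and 583 with miR-376a*G. The groups were again fully apart, with the *G arrays highest. The gene rose by 0.39 ± 0.084 (SE, adjusted p = 0.00534) and 0.74 (adjusted p = 3.95e-05), and the forms differed by -0.35 (miR-376a*A minus miR-376a*G, adjusted p = 0.0114). The stretch before its start lies at chr4:77862730-77862829 on the plus strand and is shown because MRPL1 passed in all 3 comparisons.
MRPL1: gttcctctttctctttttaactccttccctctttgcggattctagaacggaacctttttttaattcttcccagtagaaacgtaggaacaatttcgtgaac

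The other named rises with miR-376a*A were MRPS21, MRPL34 and MRPL24. MRPS21, a small subunit protein with a bacterial counterpart, had signals of 399, 633 and 595 in the controls, 810, 851 and 850 with miR-376a*A, and 862, 898 and 796 with miR-376a*G. The lowest control was replicate 1, and neither form overlapped with the controls. MRPS21 rose by 0.64 (adjusted p = 0.0041) and 0.66 (adjusted p = 0.00258). MRPL34 rose by 0.48 (adjusted p = 0.00591) and 0.50 (adjusted p = 0.00388), with controls of 359, 469 and 507 against 589 to 664 with the forms. MRPL24, of the tunnel exit of the large subunit, had control signals of 466, 704 and 669 and signals of 735, 855 and 852 with miR-376a*A. It rose by 0.42 (adjusted p = 0.0316), and lost that call under 5 of the 20 alternative settings. MRPL24 gave 0.24 with miR-376a*A and 0.26 with miR-376a*G without control replicate 1, and both passed.

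MRPL54 and MRPL22 completed the 6 widest rises with miR-376a*G. MRPL54 had signals of 247, 260 and 343 in the controls and 471, 480 and 401 with miR-376a*G, which did not overlap. It rose by 0.65 ± 0.12 (SE, adjusted p = 0.0019), while miR-376a*A gave 0.36 (adjusted p = 0.0522) with signals of 343, 336 and 423. MRPL22, which lines the exit tunnel for the growing chain, had 406, 631 and 592 in the controls and 829, 799 and 767 with miR-376a*G. It rose by 0.57 (adjusted p = 0.00501), and its value with miR-376a*A was 0.29 (adjusted p = 0.113). These were 0.38, which passed, and 0.11, which did not, without control replicate 1. The difference between the forms did not pass for MRPL54 (-0.29, adjusted p = 0.129) or MRPL22 (-0.27, adjusted p = 0.155).

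MRPL43 was the only member that fell with miR-376a*G when all arrays were used. Its signals were 372, 495 and 508 in the controls, 493, 496 and 497 with miR-376a*A, and 303, 290 and 296 with miR-376a*G. All 3 *G arrays lay below every other array. It fell by 0.59 (SE 0.098, adjusted p = 0.000801), or 1.51-fold, against control, and without control replicate 1 by 0.73. Between the forms it was 0.71 higher with miR-376a*A (adjusted p = 0.000248). One other probe set also fell with miR-376a*G, by 0.48, while a dim one gave 0.03 and did not pass.

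The stretch before the start of MRPL43 holds the letters CCGGAAG, in capitals, of the kind bound by ETS factors such as GABP. It lies at chr10:100987498-100987597 on the minus strand.
MRPL43: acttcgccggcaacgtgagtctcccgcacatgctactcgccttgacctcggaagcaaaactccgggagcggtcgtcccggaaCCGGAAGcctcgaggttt

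**Figure D4:**
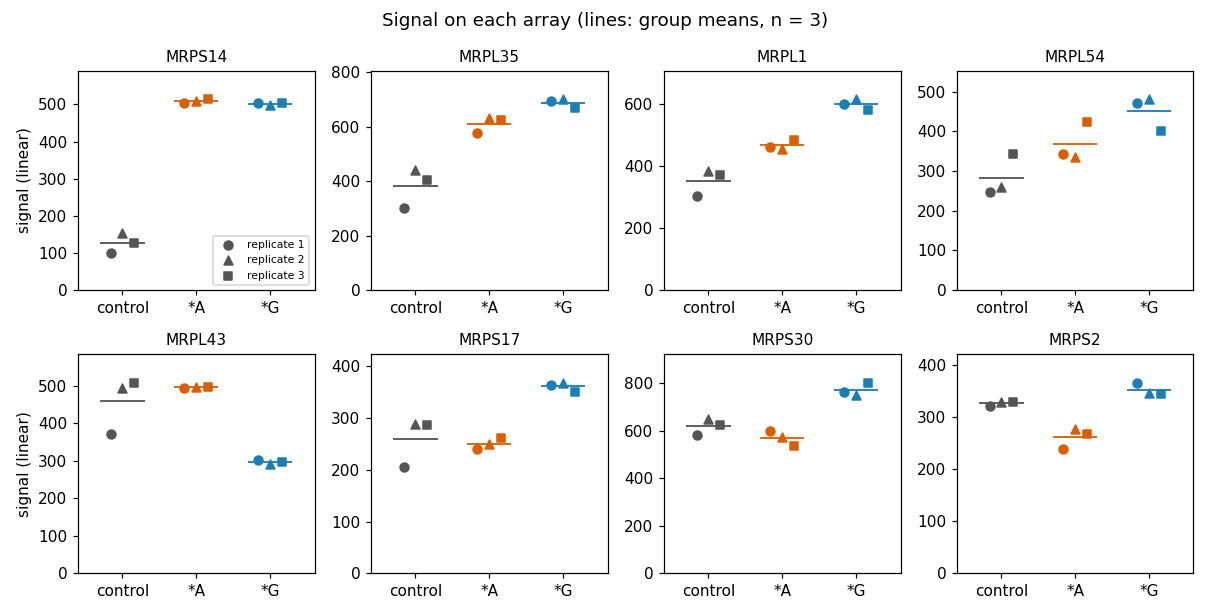
Signal on each array for 8 members, with group means as lines (n = 3). MRPS14 lies at 101 to 153 in the controls and 498 to 513 with the forms, and MRPL43 lies lowest with miR-376a*G at 290 to 303.

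MRPS2 was the only member that fell with miR-376a*A when all arrays were used. Its signals were 322, 329 and 330 in the controls, 239, 278 and 269 with miR-376a*A, and 366, 346 and 344 with miR-376a*G. The controls were tight and the *A arrays all lay under them. MRPS2 fell by 0.31 (SE 0.071, adjusted p = 0.00901). With miR-376a*G its value was 0.10 above the control (adjusted p = 0.33). Without control replicate 1, MRPL2, MRPL4, MRPL18 and MRPL38 also fell, as did MRPS17, MRPS26 and MRPS33.

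Compared with each other, the forms differed in 11 members. Of the large subunit genes 1 was higher and 4 were lower with miR-376a*A than with miR-376a*G, and of the small subunit genes 0 were higher and 6 were lower, where 10.4% of all features were higher and 7.9% lower. The median difference was -0.13 for the large and -0.17 for the small subunit, against 0.03 over all features. The mean was higher with miR-376a*G in 66 of the 75 genes. Groups did not overlap, with the *A arrays lower, in 29 large and 19 small subunit genes, where 18.8% of all features did so. With the *A arrays higher it was 2 and 2 genes, against 23.4%, and 42.2% of all features were apart in either direction.

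The control arrays have no part in the difference between the forms but set the spread that the test uses. Without control replicate 1, 1 large subunit gene was higher and 18 were lower, and 1 small subunit gene was higher and 15 were lower, against 14.1% and 12% of all features. A fit on the 6 arrays of the forms alone called 24 large and 16 small subunit genes, 1 of each as higher, against 14.7% higher and 12.6% lower over all features. Counts of the large subunit fell to 3 when replicate 1 of miR-376a*A or replicate 3 of miR-376a*G was left out, to 2 without replicate 2 of miR-376a*A, and to 1, MRPL43, without miR-376a*G replicate 2. Shares over all features are not given for these fits with a replicate of a form left out.

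**Figure D5:**
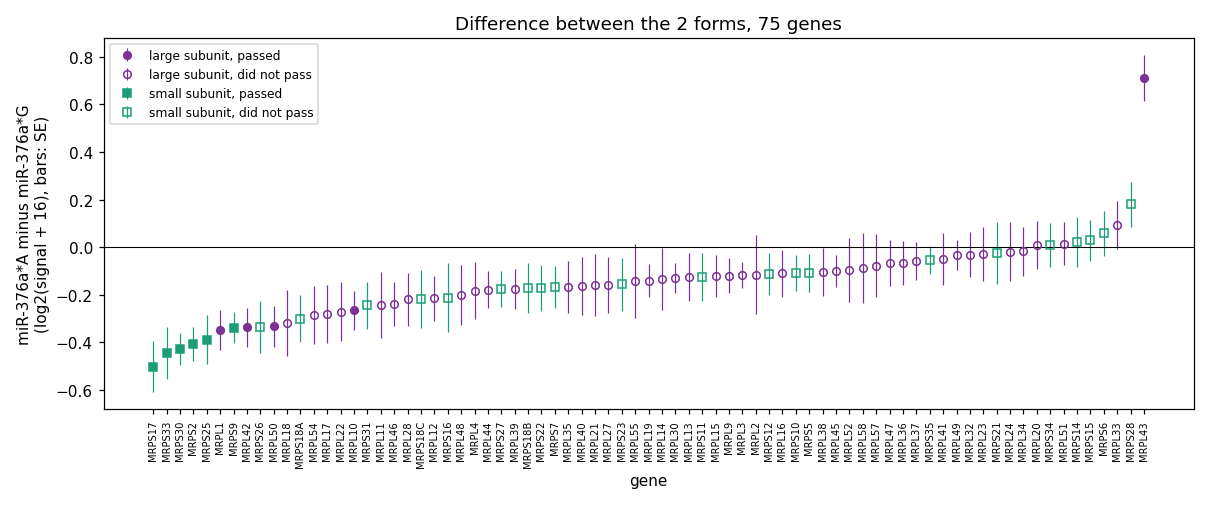
Log2 difference between the forms (miR-376a*A minus miR-376a*G) for each of the 75 protein genes, in order of size, with SE bars and filled marks for genes that passed. MRPS17 (-0.50) lies at the low end and MRPL43 (0.71) at the high end, and 66 of the 75 genes have the higher mean with miR-376a*G.

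Among members lower with miR-376a*A than with miR-376a*G, the 5 widest differences were in genes named for the small subunit. MRPS17 had signals of 239, 249 and 260 with miR-376a*A and 363, 368 and 350 with miR-376a*G, and controls of 204, 287 and 286. It was 0.50 lower with miR-376a*A (difference -0.50, adjusted p = 0.00574). MRPS33, found in mitochondrial but not bacterial ribosomes, had 741, 737 and 777 against 1003, 1066 and 1016, a difference of -0.44 (adjusted p = 0.0139). MRPS2 differed by -0.41 (adjusted p = 0.00148), or 1.33-fold. In all 3 genes the 2 groups lay apart.

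MRPS30, which structures place in the large subunit despite its name, had 599, 574 and 538 with miR-376a*A and 762, 750 and 803 with miR-376a*G. The controls, at 582, 652 and 624, overlapped with the *A arrays and lay below the *G arrays. The difference between the forms was -0.43 (adjusted p = 0.000724), and against control miR-376a*G gave a rise of 0.31 (adjusted p = 0.00471). Its other probe sets disagreed: a dimmer one fell with miR-376a*G by 0.46 and with miR-376a*A by 0.29. With the mean of its probe sets the difference between the forms was -0.16 and did not pass (adjusted p = 0.093). Its upstream stretch, at chr5:44808847-44808946 on the plus strand, is shown as that of a member whose probe sets go apart, which others also do.
MRPS30: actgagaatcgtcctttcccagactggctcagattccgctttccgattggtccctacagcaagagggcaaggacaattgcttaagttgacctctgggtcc

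The remaining differences between the forms were smaller, each lower with miR-376a*A. MRPS25 had 419, 424 and 431 against 534, 588 and 561, a difference of -0.39 (adjusted p = 0.0182). MRPS9, a conserved head protein, had 239, 225 and 238 against 308, 294 and 297, a difference of -0.34 (adjusted p = 0.00285). MRPL42 and MRPL50 differed by -0.34 and -0.33, with adjusted p of 0.0128 and 0.0179. MRPL10, which anchors the stalk that recruits translation factors, had 385, 390 and 340 against 440, 425 and 485, a difference of -0.27 (adjusted p = 0.041). That call was lost under 10 of the 20 settings. The call of MRPS25 was lost under 5, with a smallest difference of -0.18, that of MRPL50 under 4 (-0.20) and that of MRPL42 under 3 (-0.26). These included the mean of the probe sets for MRPS25, MRPL50 and MRPL42. Those of MRPS33 and MRPL1 were lost under 2 each, both without replicate 2 of one form or the other.

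Every one of the 11 protein genes that rose with miR-376a*A also rose with miR-376a*G, but both comparisons use the same control arrays. They were MRPL1, MRPL13, MRPL24, MRPL30, MRPL34 and MRPL35 of the large subunit, and MRPS6, MRPS10, MRPS14, MRPS21 and MRPS35 of the small. A further 15 large and 13 small subunit genes passed with miR-376a*G and not with miR-376a*A, which does not show that the forms differ there. Group means rose from control to miR-376a*A to miR-376a*G in 37 of 48 large and 15 of 27 small subunit genes. This order held in 24 large and 10 small subunit genes without control replicate 1. MRPS35 had controls of 572, 567 and 544, *A signals of 726, 703 and 702 and *G signals of 776, 721 and 719.

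Probe sets of a gene did not always move together. Of the 40 protein genes called with miR-376a*G, 19 had other probe sets above the filter. In 9 of them all others had the same sign, and in 3 another probe set passed in the opposite direction. MRPS10 was one of these, with 1 probe set falling by 0.23 with each form while the other 2 rose by 0.24 and 0.30 with miR-376a*A. Without control replicate 1 the brightest probe set of MRPS10 gave 0.15 with miR-376a*A and still passed. On its brightest probe set MRPL42 gave 0.02 with miR-376a*A, or -0.07 without control replicate 1, and did not pass, while another fell by 0.42.

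MRPL20-AS1, antisense to MRPL20, had signals of 63.1, 83.5 and 81.6 in the controls, 97.1, 104 and 100 with miR-376a*A, and 106, 98.7 and 113 with miR-376a*G. It rose by 0.35 ± 0.097 (SE, adjusted p = 0.0229) and 0.41 (adjusted p = 0.00777), and the forms differed by -0.06. MRPL20 gave 0.12 and 0.11, or -0.03 and -0.03 without control replicate 1, and did not pass in either comparison. The gene and its antisense partner have separate probe sets, and whether these read opposite strands was not tested.

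Genes that work with the mitochondrial ribosome were taken from lists made for this purpose. Their counts stand against 10.8% higher and 10.0% lower over all features with miR-376a*A, 11.8% and 13.1% with miR-376a*G, and 10.4% and 7.9% between the forms. Of the 4 other subunit genes tested, 0 rose and 1 fell with miR-376a*A, and 0 passed with miR-376a*G, where CHCHD1 and DAP3 gave 0.25 and 0.22 (0.13 and 0.17 without control replicate 1). The 1 that fell was PTCD3, a pentatricopeptide protein of the small subunit, by 0.27. Among 15 translation factors 0 rose and 4 fell with miR-376a*A, and 1 rose and 1 fell with miR-376a*G. GUF1, a back-translocating elongation factor, fell by 0.42 and 0.34, though without control replicate 1 the values were -0.28 and -0.20 and only the first passed, and TUFM, the elongation factor that brings tRNA, fell by 0.24 with miR-376a*A. MTIF2, the initiation factor, was lower with miR-376a*A than with miR-376a*G by 0.34 (difference -0.34, adjusted p = 0.00246).

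Between the forms 0 of the 15 translation factors were higher with miR-376a*A and 4 were lower.

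Among 17 mitochondrial tRNA synthetases 1 rose and 4 fell with miR-376a*A, and 2 rose and 2 fell with miR-376a*G. The list includes GARS1 and KARS1, which are not specific to mitochondria. The 2 that fell with miR-376a*G were GARS1, by 0.32, and PARS2, a dim gene with group means of 20.1 to 32.5. LARS2, which charges leucine tRNA, had signals of 355, 340 and 344 in the controls, 201, 213 and 209 with miR-376a*A, and 397, 381 and 384 with miR-376a*G. It fell by 0.69 (SE 0.063, adjusted p = 8.1e-06) with miR-376a*A, and the forms differed by -0.85, or 1.80-fold. RARS2, for arginine, rose by 0.36 and 0.52, with controls of 410 to 461 and *G signals of 616 to 656.

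Among 25 assembly factors 2 rose and 3 fell with miR-376a*A, and 4 rose and 2 fell with miR-376a*G. ERAL1, a GTPase that chaperones the small subunit rRNA, had signals of 174, 195 and 173 in the controls, 118, 111 and 120 with miR-376a*A and 133, 124 and 124 with miR-376a*G. It fell by 0.57 and 0.46. C1QBP rose by 0.30 and 0.34. Among 14 regulators of mitochondrial transcription and biogenesis 1 rose and 4 fell with miR-376a*A, and 2 rose and 1 fell with miR-376a*G. TFB2M, needed to start mitochondrial transcription, rose by 0.35 and 0.40. TFAM fell by 0.31 with miR-376a*A, and GABPB1, a subunit of the ETS factor GABP, fell by 0.32. Between the forms 3 synthetases were higher with miR-376a*A and 4 lower, 0 assembly factors higher and 4 lower, and 1 regulator higher and 4 lower. Counts higher and lower with miR-376a*A, leaving out control replicate 1, were 0 and 5 for translation factors, 1 and 2 for synthetases, 1 and 4 for assembly factors and 1 and 3 for regulators. With miR-376a*G they were 1 and 0, 4 and 2, 4 and 2, and 3 and 3. Between the forms they were 0 and 7, 3 and 6, 0 and 7, and 2 and 5. Shares over all features in this fit were 12% higher and 10.6% lower with miR-376a*A, and 13.1% and 13.4% with miR-376a*G. For the forms compared with each other the shares were 14.1% and 12%.

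RefSeq promoter windows, from 250 bases before to 50 after each start, were matched for 67 of the 75 protein genes. The ETS letters CCGGAAG, read on both strands, were found in 29 of them (43.3%), against 20.6% of 11026 genes tested on the array and 12.2% of 27305 genes in the table. The letters AAGATGGCG of YY1 were found in 12 (17.9%), against 4.29% and 2.14%. The NRF1 palindrome, which is GCGCATGCG followed by C, was found in 1 (1.49%), against 2.58% and 1.52%. Without that last letter, a search added after this count was seen, it was found in 3 (4.48%), against 4.01% and 2.34%, so the members went from below to above the other array genes with the length searched. The shorter NRF1 letters lie within the longer ones. A match is a description only.

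The values of members with and without these letters are given side by side, with no test. Of 29 genes with the ETS letters 16 rose with miR-376a*G, with a median of 0.32, and of 38 without them 20 rose, with a median of 0.30. Of 12 with the YY1 letters 7 rose, with a median of 0.33, and of 55 without them 29 rose, with a median of 0.31. Over all features 11.8% rose. YY1 itself fell by 0.31 with miR-376a*G (adjusted p = 0.00329).

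In 23 members the promoter window overlaps that of a gene on the opposite strand, and 17 such partners were tested. The 17 include MRPL46 and MRPS11, which are members themselves. With miR-376a*G 3 partners rose and 3 fell, with a median of 0.10, where 11.8% of all features rose and 13.1% fell. MRPL50 rose by 0.46 while its partner ZNF189 fell by 0.60. MRPL27 rose by 0.49 while its partner EME1 fell by 0.41. MRPS18C rose by 0.39 and its partner HELQ by 0.25. Without control replicate 1 MRPL27 gave 0.31 and MRPS18C gave 0.22, and both passed. The other 3 partners that passed were OAZ3, PIERCE1 and PTCD2, facing MRPL9, MRPS2 and MRPS27, which did not pass. MRPL46 and MRPS11 face each other, and neither passed with either form.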

How the data were processed

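Affymetrix human arrays were used, 1 for each of the 9 U87 samples. The deposited values are linear probe-set intensities. The submitters' processing notes name GCOS 1.4.0.036. Its role and the signal algorithm are not given in these sources. The 2% trimmed mean was near 100.01 on every array, which hides any change common to all transcripts. Probe sets were kept from the 40th percentile of mean log2(signal + 16) upward, a log2 value of 4.77 or signal of 11.3, with the brightest standing for each gene. The tool was limma 3.58.1 (R 4.3.3; lmFit, contrasts and eBayes with a trend), two-sided, on all 9 arrays, with Benjamini-Hochberg adjustment over 20068 features. Biological replicates are those of the labels, and the spread between them sets every p-value. Tests were tried on simulated data. The members, related lists, motifs and rules were chosen with earlier results of these data known. Named were the 6 widest rises and falls per comparison among members that passed without overlap, MRPS14, all members that differed between the forms, and up to 3 genes per related list. Alternatives covered scaling, filter, offset, variance trend, probe-set rule, arrays fitted, the replicate block and leaving out each replicate. The main fit did not pair arrays by replicate number. Correlations of deviations were -0.11 to 0.07 between same-numbered arrays and -0.12 to 0.14 between arrays of different number. Whether same-numbered arrays shared a batch is not given by the labels. The NRF1 letters were searched in a second, shorter form after the first count was seen. Gene names and sequences are from RefSeq (GRCh38.p14).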

Additional observations from a re-analysis of the deposited data

Results flagged for a closer look

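For 11 members the effect of one form differed from that of the other by the limma test between the forms (values are miR-376a*A minus miR-376a*G, log2). That was 14.5% of the 76 members, against 18.3% of all features tested. MRPL43 was higher with miR-376a*A, by 0.71. MRPS17 differed by -0.50, MRPS33 by -0.44, MRPS30 by -0.43, MRPS2 by -0.41 and MRPS25 by -0.39. MRPL1 differed by -0.35, MRPS9 and MRPL42 by -0.34 each, MRPL50 by -0.33 and MRPL10 by -0.27. Groups of 3 arrays were not tested for single arrays that stand apart.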

How the results depend on the processing

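Counts of called genes moved by over 1.5 times as follows. Large subunit genes with miR-376a*A against control numbered 6, and 3 with no filter or with only the 2 groups fitted. Small subunit genes with miR-376a*G numbered 18, and 11 under each of those settings. Between the forms, with only their arrays fitted, they were 24 and 16 in place of 5 and 6. Leaving out 1 replicate gave, for large and small subunit genes, 3 to 16 and 5 to 9 with miR-376a*A, 16 to 33 and 11 to 21 with miR-376a*G, and 1 to 19 and 4 to 16 between the forms. Without miR-376a*G replicate 2 the 1 large subunit gene left between the forms was MRPL43, higher with miR-376a*A as with all arrays. The 4 large subunit genes called lower with all arrays no longer passed there. Shares over all features are not given for the fit with no filter. Nor are they given for fits with 1 replicate left out, other than control replicate 1. Whether the members or the whole array moved there is not shown, and the cause of these moves was not tested.

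With the replicate block the counts were 5 and 5 with miR-376a*A, 23 and 18 with miR-376a*G, and 4 and 6 between the forms, for large and small subunit genes. The share over all features is not given for this setting. Of the 9 arrays, 3 correlated best with their own number. Median centring changed the calls over all features between the forms from 2086 higher and 1585 lower to 1509 and 2217, and with miR-376a*A from 2164 and 2013 to 1659 and 2353. Of 26 named differences 25 kept their direction under all 20 settings. The other, MRPS14 between the forms, ran from -0.04 to 0.12 and never passed. Of the 520 values 488 stayed on their side of the threshold. The other 32 no longer passed. With 3 arrays a group, smaller differences cannot be resolved.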
